A study of Mus musculus with 56 samples.

Results

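Inhibitory checkpoint and exhaustion genes were followed by symbol through 10 deposited comparisons of cells sorted from mouse rectal tumors. The 10 genes were Pdcd1, Ctla4, Lag3, Havcr2, Tigit, Cd160, Entpd1, Tox, Cd274 and Pdcd1lg2, and all 10 were present among the 55453 genes listed for CD8+ T cells of responding, nonresponding and untreated tumors and among the 53819 genes listed in the other tables. The tumors grew from MC38, a mouse colon carcinoma line that carried luciferase, injected into the rectum of female C57BL/6J mice aged 6 to 8 weeks. Short-course radiotherapy (SCRT) was given on days 9 to 13 in 5 fractions of 5 Gy, and cells were sorted on day 14. Tumors for sequencing were weighed at harvest and designated as responding or nonresponding, and in the study a responding tumor had a stable or falling bioluminescence over treatment and a nonresponding tumor a rising one.

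CD8+ T cells (sorted as CD45+ CD8b+) came from 5 untreated, 6 responding and 4 nonresponding tumors without antibody. In a separate set of 11 CD8+ T cell libraries, SCRT was combined with IgG or with an antibody that neutralizes the type I interferon receptor (anti-IFNAR). The sample records place 5 of these in the IgG arm and 6 in the anti-IFNAR arm, the study's legend has the reverse, and which is right could not be settled. Cancer-associated fibroblasts (CAFs, sorted as CD45- CD31- GFP- PDGFRa+ podoplanin+ Ly6C+) and GFP-marked MC38 tumor cells (CD45- GFP+) each came from 5 untreated, 4 responding and 6 nonresponding tumors. The sample records number the tumors of CAFs and tumor cells alike, so both may come from the same tumors. Calls in CAFs and in tumor cells need not be independent. Arm sizes for responding and nonresponding tumors are those in the study's legends, and for CAFs and tumor cells the study's CAF heat map is the source for which deposited label is the responding group.

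For each gene and comparison the tables hold a Wald statistic with its p-values, a log2 fold change, and the normalized count averaged over every library of the fit, but no value per library. Replicate spread is therefore visible only through the Wald statistic, which is the change divided by its standard error, and levels in single tumors or single groups cannot be given. The labels give about 25 M reads per sample, and the depth reached by each library is unknown. A gene is called here when its adjusted p-value from DESeq2 was under 0.05. The log2 fold changes were moderated toward 0, so in genes with few reads they can be small beside the statistic.

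Inhibitory receptors such as PD-1 (Pdcd1), CTLA-4 (Ctla4), LAG-3 (Lag3), TIM-3 (Havcr2), TIGIT (Tigit) and CD160 (Cd160) are displayed by CD8+ T cells after activation and remain high during persistent antigen exposure, a state called exhaustion. CD39 (Entpd1) is an ectoenzyme that degrades extracellular ATP and also marks terminally exhausted T cells, and Tox is a transcription factor needed for the exhausted program. PD-L1 (Cd274) and PD-L2 (Pdcd1lg2) are the ligands of PD-1, and PD-L1 is induced by interferons on tumor, stromal and immune cells.

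Of the 10 genes, 3 were called in at least 1 comparison, giving 8 calls in all. Cd274 was called higher in responding than in untreated tumors in CD8+ T cells, CAFs and tumor cells. Entpd1 was called higher in CAFs and in tumor cells after SCRT, in responding and in nonresponding tumors. Tox was called lower in CD8+ T cells of responding than of untreated tumors. The other 7 genes were called in no comparison, and none of the 10 was called between responding and nonresponding tumors or between anti-IFNAR and IgG.

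**Figure D1:**
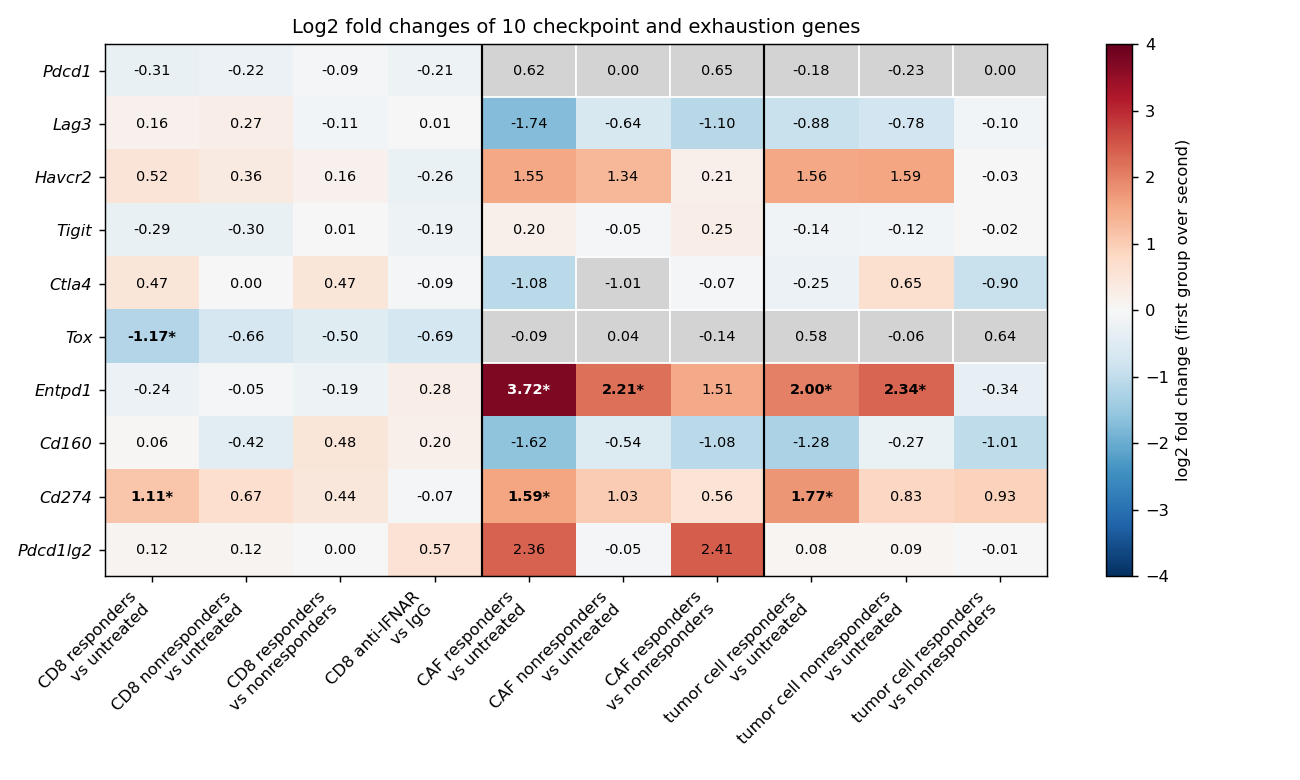
Log2 fold changes of the 10 genes (vertical axis) in the 10 comparisons (horizontal axis), first-named group over second, with the color scale in log2 units. Asterisks mark the 8 values with an adjusted p-value under 0.05, grey cells had no adjusted p-value, and the strongest color is Entpd1 in CAFs of responding tumors at 3.72.

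Type I interferon target genes were used to check the direction of the tables. In CD8+ T cells, 7 of 8 such genes were called higher in responding and in nonresponding tumors than in untreated ones, and 7 of 8 were called lower with anti-IFNAR than with IgG. Of all tested genes 17.4%, 1.66% and 0.981% were called in these comparisons. In CAFs and in tumor cells all 8 interferon targets were called higher in responding and 7 of 8 in nonresponding tumors. The shares of all tested genes were 12.2% and 3.19% in CAFs and 6.59% and 0.777% in tumor cells. Between responding and nonresponding tumors 0 of 8 were called in any of the cell types. The shares of all tested genes there were 1.22% in CD8+ T cells, 1.91% in CAFs and 0.736% in tumor cells. The interferon target genes therefore do not check which label is the responding group. Ifit3, an interferon-induced antiviral gene, had a log2 fold change of 1.57 in CD8+ T cells of responding tumors, 3.88 in CAFs, 4.01 in tumor cells and -3.35 with anti-IFNAR. Defining markers of the sorted T cells were abundant in their own fit, with means of 46970 for Cd8a and 43081 for Cd8b1. In the joint fit of CAFs and tumor cells the fibroblast markers Col1a1 and Pdgfra had means of 46777 and 12488 and the epithelial markers Krt8 and Cdh1 had 1544 and 14.0, but a mean over both sorts cannot check the label of either. The CD8+ T cell libraries also held macrophage transcripts, with a mean of 41041 for Lyz2 and 9105 for C1qb.

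In CD8+ T cells none of the receptors was called in any comparison. Against untreated tumors, 2 of the 10 genes were called in responding tumors (Cd274 and Tox), beside 17.4% of all tested genes. In nonresponding tumors 0 of 10 were called by DESeq2, beside 1.66% of all tested genes, and 3 of 10 (Cd274, Tox and Cd160) had an unadjusted p under 0.05, beside 6.08% of all genes with a p-value. Between responding and nonresponding tumors 0 of 10 were called by DESeq2, beside 1.22% of all tested genes, and 2 of 10 (Cd160 and Cd274) had an unadjusted p under 0.05, beside 7.79%. The share called in responding tumors is close to that of all genes. The median log2 fold change over the 10 genes was 0.09 in responding and -0.02 in nonresponding tumors, and over all genes with means of 10 or more it was 0.01 and -0.01. Both comparisons share the untreated libraries.

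Pdcd1, which encodes PD-1, had a mean of 43970 normalized counts over these libraries. Its log2 fold change against untreated tumors was -0.31 in responding tumors (Wald statistic -1.28, adjusted p = 0.41) and -0.22 in nonresponding tumors (Wald statistic -0.83, adjusted p = 0.829). Between the responding and nonresponding groups it was -0.09 (Wald statistic -0.34, adjusted p = 0.931). None of these values exceeded 2 standard errors.

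Ctla4, a receptor that competes with CD28 for B7 ligands, had a mean of 10080 normalized counts. Its log2 fold change was 0.47 in responding tumors against untreated ones (Wald statistic 2.01, adjusted p = 0.153) and 0.00 in nonresponding tumors (adjusted p = 0.998). The difference between responding and nonresponding tumors was 0.47 (Wald statistic 1.90, adjusted p = 0.409). Ctla4 was thus called in none of these comparisons. Its unadjusted DESeq2 p was 0.0446 in responding against untreated tumors, where 17.7% of all genes with a p-value were under 0.05. Against nonresponding tumors it was 0.0571.

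Havcr2, the gene of TIM-3, had log2 fold changes of 0.52 in responding (Wald statistic 1.86, adjusted p = 0.193) and 0.36 in nonresponding tumors (Wald statistic 1.18, adjusted p = 0.707). Lag3, whose product binds MHC class II, had 0.16 and 0.27 (adjusted p = 0.777 and 0.829). Tigit, a receptor for poliovirus receptor family ligands, had -0.29 and -0.30 (adjusted p = 0.528 and 0.784). For these receptors the differences between responding and nonresponding tumors ranged from -0.11 for Lag3 to 0.16 for Havcr2 on the log2 scale, with Wald statistics from -0.36 to 0.51.

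Cd160, a receptor for HVEM (Tnfrsf14), was the receptor with the largest statistic between responding and nonresponding tumors. Its log2 fold change between these groups was 0.48 (Wald statistic 2.66, adjusted p = 0.177), composed of 0.06 against untreated in responding tumors and -0.42 in nonresponding tumors (Wald statistic -2.27, adjusted p = 0.306). Entpd1 in CD8+ T cells had log2 fold changes of -0.24 in responding and -0.05 in nonresponding tumors, with adjusted p-values of 0.543 and 0.975. These values were not called, and no interval can be given, since the tables carry no standard error of the moderated change.

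Tox fell 2.24-fold in CD8+ T cells of responding tumors (log2 fold change -1.17, Wald statistic -4.38, adjusted p = 0.000403). By its statistic it ranked 201 of 16857 tested genes among those lower in responding tumors. In nonresponding tumors the log2 fold change was -0.66 (Wald statistic -2.27, adjusted p = 0.306). The difference between responding and nonresponding tumors was -0.50 and was not called (Wald statistic -1.74, adjusted p = 0.467), so the drop was not shown to be larger in responding tumors.

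Cd274 rose 2.16-fold in the same cells (log2 fold change 1.11, Wald statistic 5.72, adjusted p = 1.56e-06), and ranked 88 of 16857 tested genes among those higher in responding tumors. In nonresponding tumors the log2 fold change was 0.67 (Wald statistic 3.13, adjusted p = 0.0783), just outside the threshold. The value between responding and nonresponding tumors was 0.44 (Wald statistic 2.12, adjusted p = 0.332). Pdcd1lg2 had 0.12 on the log2 scale in both groups (adjusted p = 0.806 and 0.93). The ligands thus differed in what they showed in these cells, although a difference between them was not tested.

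**Figure D2:**
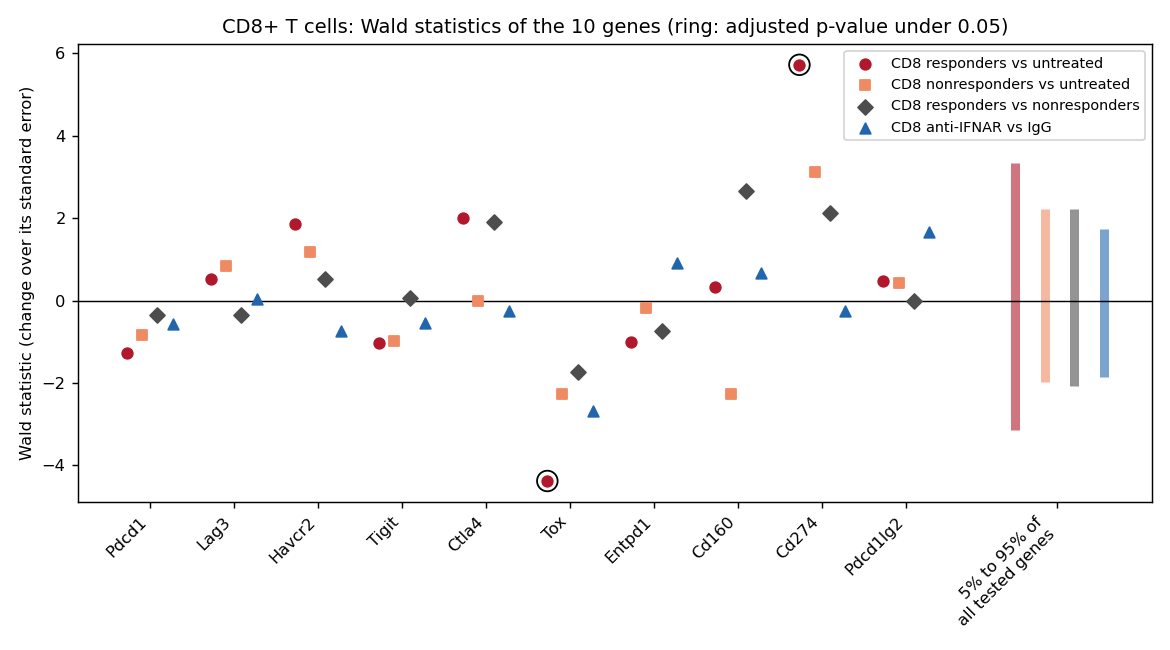
Wald statistics (vertical axis, change over its standard error) of the 10 genes (horizontal axis) in the 4 comparisons of CD8+ T cells, with bars at the right for the span from the 5th to the 95th percentile of all tested genes. Ringed points, Cd274 at 5.72 and Tox at -4.38, are the called values, and both lie beyond the span of -3.15 to 3.33 in that comparison.

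Genes listed as markers of other cells were also called where Cd274 was called in CD8+ T cells, a comparison with 17.4% of all tested genes called. In responding against untreated tumors all 5 neutrophil markers were called higher (Retnlg by 2.28 on the log2 scale), with 4 of 5 B cell markers (Cd79b by 1.75) and 3 of 4 endothelial markers. So were 2 of 7 dendritic cell markers (Itgax by 0.94 and Ccr7 by 0.97) and 1 of 10 macrophage markers (Itgam by 1.09). Ccr7 is counted again below among progenitor exhausted genes, and the uncalled dendritic cell markers ran from -0.53 for Xcr1 to 0.63 for Cd209a. Also called higher were 2 of 5 markers of CD4 and regulatory T cells (Cd40lg by 1.94 and Il2ra by 1.08) and 1 of 5 epithelial markers (Cdh1). Of 3 NK cell markers with an adjusted p-value, 1 was called lower (Klre1, -1.44, adjusted p = 2.09e-06), while Klrb1c had 0.85 and Ncr1 had 0.38. Of the fibroblast markers 0 of 8 were called. Klre1 and Il2ra had means of 3315 and 2875, against 20.0 for Ncr1 and 398 for Cd4, and which cells their reads came from was not tested. The macrophage count lay under the share of all tested genes, and the epithelial count near it. None of the 8 CD8 T cell markers was called, and their median log2 fold change was 0.04. Against nonresponding tumors 3 of 5 neutrophil markers were again called higher, beside 1.22% of all tested genes, and in nonresponding against untreated tumors 0 of 5, beside 1.66%. Cd274 is also expressed by such cells, and their part in its change was not tested. In bulk RNA, more cells of a type and more RNA per cell cannot be told apart.

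With anti-IFNAR, 0 of the 10 genes were called by DESeq2, beside 0.981% of all tested genes, and 1 of 10 (Tox) had an unadjusted p under 0.05, beside 4.74%. The log2 fold change of Cd274 was -0.07 (Wald statistic -0.26, adjusted p = 0.994), in the comparison in which Ifit3 fell by 3.35. Tox had -0.69 (Wald statistic -2.67, adjusted p = 0.277) and Pdcd1lg2 had 0.57 (Wald statistic 1.67, adjusted p = 0.767). The receptors and Entpd1 had log2 fold changes from -0.26 for Havcr2 to 0.28 for Entpd1, all with adjusted p-values of at least 0.957. In these libraries 3 of 10 macrophage markers were called higher with anti-IFNAR (Lyz2 by 1.15) and 2 of 7 dendritic cell markers lower (Zbtb46 at -1.29). The other dendritic cell markers were not called and ran from -0.72 for Cd209a to 0.64 for Itgax. The part of macrophages and dendritic cells in the values of Cd274 and Pdcd1lg2 was not tested.

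Genes of related programs were called in the same cells. Progenitor exhausted T cells are a self-renewing pool defined by Tcf7, which encodes TCF-1, and of 12 genes of that program 11 were called higher and 0 lower in CD8+ T cells of responding against untreated tumors, beside 17.4% of all tested genes. The median log2 fold change of the 12 was 1.10. Il7r, the receptor of interleukin 7, had 1.54 (Wald statistic 6.27, adjusted p = 8.61e-08), Cxcr5 1.73, Cxcr3 1.00 and the transcription factor Lef1 1.54. Myb alone was not called (0.26, adjusted p = 0.478) and is named after its value was seen.

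In nonresponding tumors 4 of the 12 were called higher, namely Il7r (log2 fold change 1.43), Lef1 (1.60), Slamf6 (1.21) and Tcf7 (1.39), beside 1.66% of all tested genes, and the median was 1.07. Between responding and nonresponding tumors 1 of 12 was called, beside 1.22% of all tested genes, namely the chemokine receptor Cxcr3, at 1.03 (Wald statistic 4.39, adjusted p = 0.00483). With anti-IFNAR 0 of 12 were called, beside 0.981%, and the median was 0.04. The genes of this list are also expressed by naive T cells and in part by B cells, whose markers rose in responding tumors, and their part was not tested.

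Among 16 other transcription factors of exhaustion and effector cells, 3 were called higher and 0 lower in responding against untreated tumors, a share close to the 17.4% of all tested genes. Nr4a1, induced by T cell receptor signals, had a log2 fold change of 1.30 (Wald statistic 6.99, adjusted p = 1.31e-09), Zeb2 had 0.97 and Irf4 had 0.89. Nr4a1 was also called between responding and nonresponding tumors, at 0.83 (adjusted p = 0.00964). It was 1 of 16 there, beside 1.22% of all tested genes.

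Of 15 other inhibitory receptors and ectoenzymes, 2 were called higher and 2 lower in responding against untreated tumors, beside 17.4% of all tested genes in either direction. Nt5e, or CD73, the enzyme that acts after CD39 to make adenosine, had a log2 fold change of 1.36 (Wald statistic 6.78, adjusted p = 4.59e-09) and Cd300a 1.02. Cd244a, or 2B4, had -1.44 (adjusted p = 1.39e-05) and Pvrig, a receptor for nectin-2, had -1.0 (adjusted p = 0.00161). In nonresponding tumors 2 of 15 were called, Nt5e at 0.76 and Cd200r1 at -0.86, beside 1.66% of all tested genes. Between responding and nonresponding tumors 0 of 15 were called, beside 1.22%, and with anti-IFNAR 0 of 15, beside 0.981%.

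Of 16 further ligands, 14 had an adjusted p-value in responding against untreated tumors in these cells. Of these, 4 were called higher and 1 lower, beside 17.4% of all tested genes. Lgals9, or galectin-9, a ligand of TIM-3, had a log2 fold change of 0.49 (adjusted p = 0.000719), Icosl had 1.03, Ceacam1 had 1.08 and Hmgb1 had -0.56. Among 12 genes of signaling below the receptors, 1 was called higher (the phosphatase Inpp5d, 0.38) and 2 lower (the phosphatase Ptpn6, -0.30, and the adaptor Sh2d1a, -0.57), not far from that share. In nonresponding tumors Lgals9 (0.43) was the 1 ligand called of 13 with an adjusted p-value, beside 1.66% of all tested genes. There 0 of 12 signaling genes were called.

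Among 18 genes that control PD-L1, 8 were called higher and 0 lower in responding against untreated tumors, where Cd274 was called, beside 17.4% of all tested genes. They included Socs3 at 1.56, Cmtm6, which keeps PD-L1 on the cell surface, at 0.54, Jak2 at 0.74 and Ifnar2 at 0.66 on the log2 scale. In nonresponding tumors 0 of 18 were called, beside 1.66% of all tested genes. With anti-IFNAR 1 of 18 was called, beside 0.981%, namely Stat2, which fell by 0.97 (adjusted p = 0.00389).

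**Figure D3:**
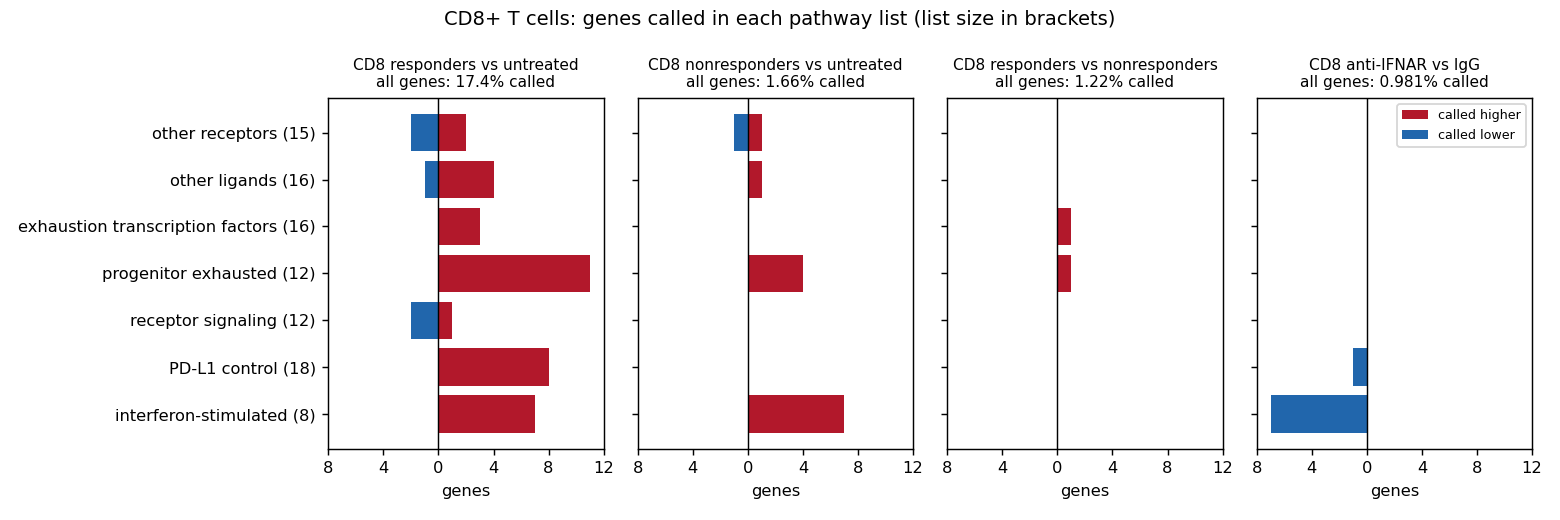
Number of genes called higher (red, right) and lower (blue, left) in each pathway list (vertical axis, list size in brackets) in the 4 comparisons of CD8+ T cells, with the share of all tested genes called above each panel. The progenitor exhausted list had 11 of 12 genes called higher in responding against untreated tumors and 0 with anti-IFNAR.

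The regions before the start sites of the genes that were called outside CD8+ T cells are shown for their interferon motifs, together with that of Pdcd1lg2, which lies on the same chromosome as Cd274. They are RefSeq sequences of GRCm38.p6, not of the mm39 build to which the reads were aligned, and were matched by symbol. Windows were held for 8 of the 10 genes, and not for Tox and Lag3. Each line is 250 bases ending at the base before a start site, 5′ to 3′ on the strand of the gene. Capitals mark the half-site of interferon regulatory factors, searched as AANNGAAA on both strands. The windows are Cd274 at chr19:29367188-29367437, plus strand, Pdcd1lg2 at chr19:29410669-29410918, plus strand, and Entpd1 at chr19:40612116-40612365, plus strand (window 1) and chr19:40659520-40659769, plus strand (window 2).
Cd274: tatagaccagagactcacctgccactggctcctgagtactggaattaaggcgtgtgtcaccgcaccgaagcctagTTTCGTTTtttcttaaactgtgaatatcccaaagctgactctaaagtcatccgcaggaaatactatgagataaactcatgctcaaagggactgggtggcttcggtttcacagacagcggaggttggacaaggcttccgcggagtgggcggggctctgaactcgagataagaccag
Pdcd1lg2: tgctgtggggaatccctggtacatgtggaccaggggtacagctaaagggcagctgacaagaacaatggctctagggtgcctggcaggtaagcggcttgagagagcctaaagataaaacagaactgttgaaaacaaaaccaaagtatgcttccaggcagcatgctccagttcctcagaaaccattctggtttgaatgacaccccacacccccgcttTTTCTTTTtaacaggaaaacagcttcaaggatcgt
Entpd1 window 1: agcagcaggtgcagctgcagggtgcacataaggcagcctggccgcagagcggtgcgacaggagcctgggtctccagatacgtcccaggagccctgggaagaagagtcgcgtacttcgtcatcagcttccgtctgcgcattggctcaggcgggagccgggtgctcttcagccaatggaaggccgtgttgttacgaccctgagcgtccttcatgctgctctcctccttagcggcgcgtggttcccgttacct
Entpd1 window 2: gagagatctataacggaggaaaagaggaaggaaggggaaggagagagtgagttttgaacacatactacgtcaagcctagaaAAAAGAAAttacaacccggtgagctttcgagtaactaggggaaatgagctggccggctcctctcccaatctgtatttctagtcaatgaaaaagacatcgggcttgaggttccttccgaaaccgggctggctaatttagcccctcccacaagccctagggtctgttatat

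The half-site was found as its reverse complement 175 bases before the start of Cd274 and 35 bases before that of Pdcd1lg2, and in forward orientation 169 bases before the second start of Entpd1, counted to the first base of the match. It was held by 21.3% of 32851 such windows, so a match is common. The core of the interferon-stimulated response element, searched on both strands as 2 copies of GAAA with any 2 bases between them, which contains the half-site, was in 2.98% of windows and in none of these 4. The interferon gamma activated site, searched as TTCNNNGAA on both strands, was in 7.02% of windows and in none of these 4.

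In CAFs, Entpd1 and Cd274 were called in responding against untreated tumors, making 2 of the 8 members with an adjusted p-value, beside 12.2% of all tested genes. In nonresponding tumors 1 of 7 such members was called, Entpd1, beside 3.19% of all tested genes. When responding CAFs were set against nonresponding ones, 0 of 8 such members were called by DESeq2, beside 1.91% of all tested genes, and 2 of 10 (Entpd1 and Pdcd1lg2) had an unadjusted p under 0.05, beside 7.3%. CAFs and tumor cells were fitted jointly, so each mean below covers the libraries of both. In this fit Cd160 (4.51), Ctla4 (3.03), Pdcd1 (1.07) and Tox (0.319) had means under 10, and Pdcd1 and Tox had no adjusted p-value in any of its comparisons.

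Cd274 had a mean of 1282 normalized counts in the joint fit. In CAFs it rose 3.02-fold in responding tumors (log2 fold change 1.59, Wald statistic 3.75, adjusted p = 0.00404). In nonresponding tumors the log2 fold change was 1.03 (Wald statistic 2.66, adjusted p = 0.155), and the difference between the responding and nonresponding groups was 0.56 (Wald statistic 1.40, adjusted p = 0.669). The value in responding tumors was called and that in nonresponding tumors was not, without a called difference between them.

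Pdcd1lg2, with a mean of 76.9, had a log2 fold change of 2.36 in CAFs of responding tumors (Wald statistic 2.59, adjusted p = 0.0675), of -0.05 in nonresponding tumors (Wald statistic 0.10, adjusted p = 1.0) and of 2.41 between the groups (Wald statistic 2.60, adjusted p = 0.178). It did not pass the threshold in any of these. In nonresponding tumors the moderated change and the statistic had opposite signs.

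Entpd1, with a mean of 275, rose 13.2-fold in CAFs of responding tumors (log2 fold change 3.72, Wald statistic 6.14, adjusted p = 2.01e-07), and ranked 57 of 18662 tested genes among those higher there. In nonresponding tumors it rose 4.62-fold (log2 fold change 2.21, Wald statistic 4.02, adjusted p = 0.00507). From nonresponding to responding tumors the log2 fold change was 1.51 (Wald statistic 2.62, adjusted p = 0.172). Entpd1 was thus the member with the highest statistic in CAFs in both comparisons with untreated tumors.

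Among the receptors in CAFs, Havcr2 had log2 fold changes of 1.55 in responding and 1.34 in nonresponding tumors (adjusted p = 0.12 and 0.34), and Lag3 had -1.74 and -0.64 (adjusted p = 0.0552 and 0.954). Tigit had a mean of 130 with log2 fold changes of 0.20 and -0.05. These receptors belong to lymphoid and myeloid cells, and the defining T cell markers had means of 1.11 for Cd3d, 2.24 for Cd3e and 1.06 for Cd8b1 in the joint fit. Lck, at 324, and Trac, at 43.0, were higher than the other T cell markers. Lck had no p-value in any comparison of this fit, and how its reads were spread over the libraries cannot be seen. Trac was called lower in responding CAFs (log2 fold change -1.97, adjusted p = 0.0364), the comparison in which Lag3 had -1.74. Lck went the other way there (2.60, Wald statistic 4.13), and the median over the 8 T cell markers was -0.14. The part of T cells in the value of Lag3 was not tested.

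In tumor cells 8 of the 10 genes had an adjusted p-value, and 2 of these 8 were called in responding against untreated tumors, again Cd274 and Entpd1, beside 6.59% of all tested genes. In nonresponding tumors 1 of 8 was called, Entpd1, beside 0.777% of all tested genes. In the responding against the nonresponding group 0 of 8 were called by DESeq2, beside 0.736% of all tested genes, and 2 of 10 (Cd274 and Cd160) had an unadjusted p under 0.05, beside 6.25%.

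Cd274 rose 3.40-fold in tumor cells of responding tumors (log2 fold change 1.77, Wald statistic 4.16, adjusted p = 0.00224). In nonresponding tumors the log2 fold change was 0.83 (Wald statistic 2.16, adjusted p = 0.57), and between the responding and nonresponding groups it was 0.93 (Wald statistic 2.30, adjusted p = 0.321). Pdcd1lg2 had 0.08 and 0.09 in responding and nonresponding tumors (Wald statistics -0.32 and 1.42, adjusted p = 0.908 and 1.0). As in the other cells, Cd274 was called against untreated tumors in the responding group alone, without a called difference between the groups.

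Entpd1 rose 4.01-fold in tumor cells of responding tumors (log2 fold change 2.00, Wald statistic 3.33, adjusted p = 0.0214) and 5.07-fold in those of nonresponding tumors (log2 fold change 2.34, Wald statistic 4.22, adjusted p = 0.00524). The difference between the groups was -0.34 (Wald statistic -0.51, adjusted p = 0.893). Havcr2 had log2 fold changes of 1.56 and 1.59 (adjusted p = 0.181 and 0.473), Lag3 of -0.88 and -0.78 (adjusted p = 0.521 and 1.0), and Tigit of -0.14 and -0.12 (adjusted p = 0.943 and 1.0). Ctla4 and Cd160 lay under a mean of 10 and were not called.

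**Figure D4:**
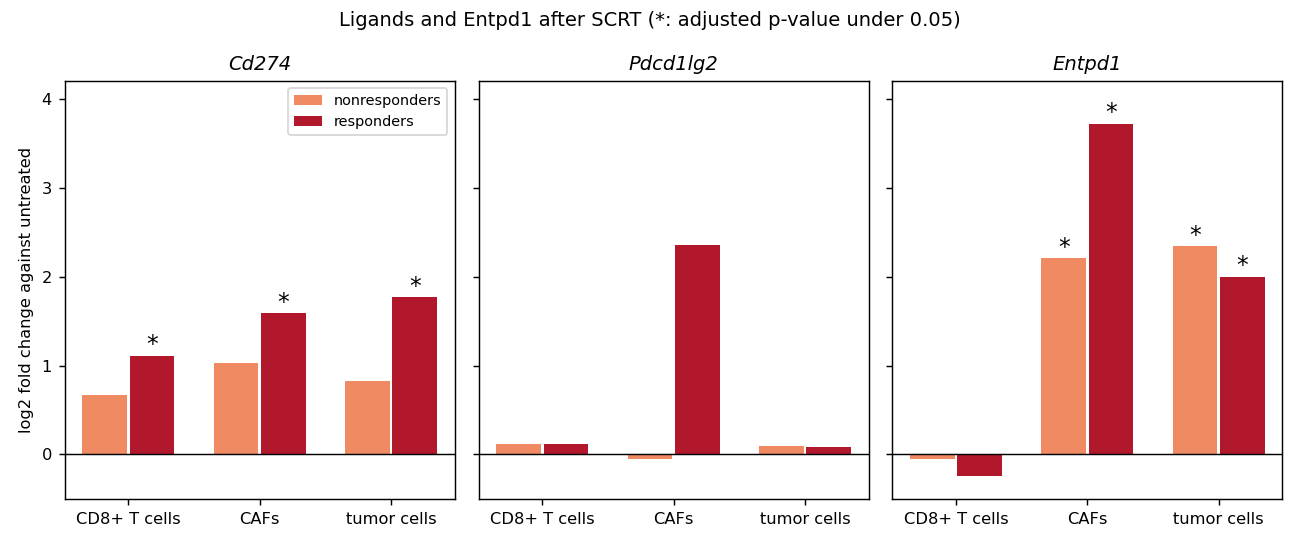
Log2 fold change against untreated tumors (vertical axis) of Cd274, Pdcd1lg2 and Entpd1 in CD8+ T cells, CAFs and tumor cells, with nonresponding tumors in orange and responding tumors in red, and asterisks at adjusted p-values under 0.05. Cd274 is marked in the responding group of each cell type, at 1.11, 1.59 and 1.77, and Entpd1 in both groups of CAFs and tumor cells. No error bars are drawn, since the tables hold no standard error of the moderated change.

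Genes with means of 10 or more were shifted as a whole in responding CAFs and tumor cells. Their median log2 fold change was -0.187 in CAFs and -0.237 in tumor cells of responding against untreated tumors, and near 0 in nonresponding ones (-0.001 and -0.024). Relative to these medians, Cd274 was higher by 1.78 in CAFs and by 2.00 in tumor cells of responding tumors, and Entpd1 by 3.90 and 2.24. The direction and the order of these values stayed as before the shift.

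Macrophage markers were called higher in each comparison in which Entpd1 was called in CAFs and tumor cells, most of them in responding CAFs. In CAFs 6 of 10 were called higher in responding against untreated tumors, beside 12.2% of all tested genes. Among them C1qa rose by 3.72, Fcgr1 by 4.75, C1qc by 3.22 and C1qb by 2.74 on the log2 scale. In nonresponding CAFs 3 of 10 were called higher, beside 3.19%, and between the groups 1 of 10, beside 1.91%. In tumor cells 3 of 10 were called higher in responding tumors (C1qa by 2.7, Fcgr1 by 2.74 and Adgre1 by 2.22), beside 6.59% of all tested genes. In nonresponding tumors 1 of 10 was called higher (Fcgr1 by 2.16), beside 0.777%, and 0 of 10 between the groups, beside 0.736%. None was called lower in any of these comparisons. Their means in the joint fit ranged from 34.5 for Itgam to 1402 for Lyz2, and the level in each group cannot be had from the tables. Entpd1, Cd274, Pdcd1lg2 and Havcr2 are expressed by macrophages, and the part of these cells in their values was not tested. Both sorts were gated as CD45-, and how many macrophages passed the gate is not known here.

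**Figure D5:**
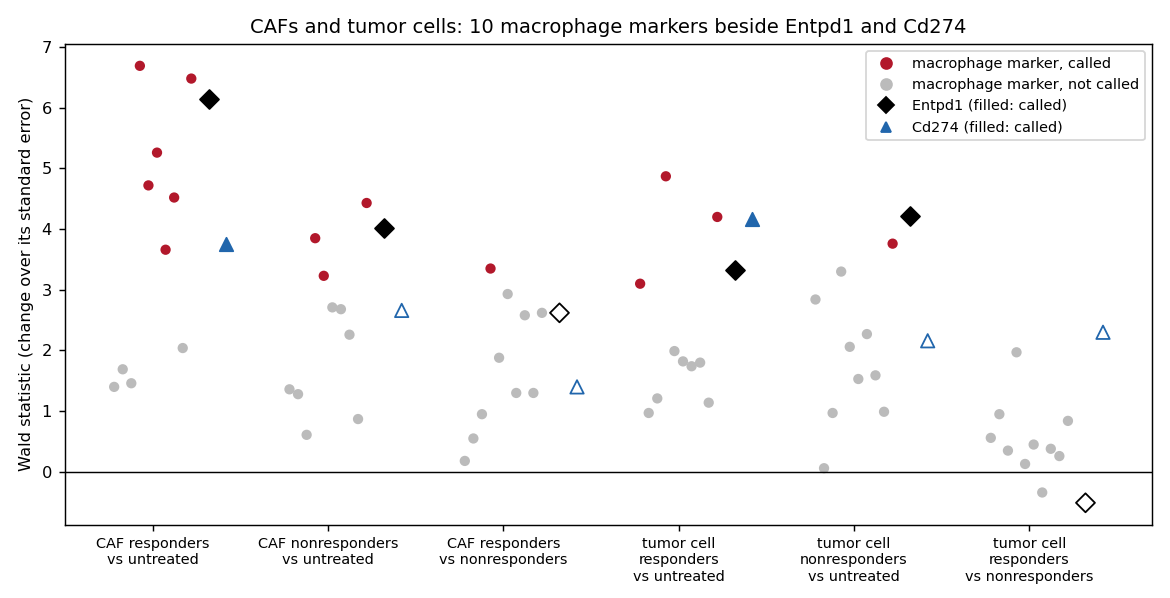
Wald statistics (vertical axis, change over its standard error) of 10 macrophage markers (circles, red where called) beside Entpd1 (diamonds) and Cd274 (triangles), filled where called, in the 6 comparisons of CAFs and tumor cells. In CAFs of responding tumors Entpd1, at 6.14, lies among the 6 called markers, and in tumor cells of responding against nonresponding tumors Entpd1 is at -0.51.

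Of the 16 further ligands, 13 had an adjusted p-value in each comparison with untreated tumors in CAFs and tumor cells. Of these, 3 were called higher and 1 lower (Hmgb1) in responding CAFs, beside 12.2% of all tested genes. In nonresponding CAFs 1 was called higher and 1 lower (Hmgb1), beside 3.19%. In responding tumor cells 2 were called higher and 0 lower, beside 6.59%, and in nonresponding tumor cells 1 higher and 0 lower, beside 0.777%. Of the 15 other receptors and ectoenzymes, 9 had an adjusted p-value in responding CAFs, and 1 was called higher (Cd38) and 1 lower (Cd5). The same numbers and genes held in responding tumor cells. In nonresponding CAFs 0 of 8 were called, and in nonresponding tumor cells 1 of 11 was called higher (Cd38), beside the same shares of all tested genes as for the ligands. Lgals9 was called higher against untreated tumors in responding and nonresponding CAFs (log2 fold change 1.47 and 1.27) and tumor cells (1.82 and 1.17), and with the values in CD8+ T cells it was called in all 6 comparisons with untreated tumors. Its difference between responding and nonresponding tumors was not called in any of the cell types (adjusted p = 0.911 in CD8+ T cells, 0.847 in CAFs and 0.142 in tumor cells). Cd38, an ectoenzyme that consumes NAD and a marker of exhausted T cells and of macrophages, had 3.67 in CAFs of responding tumors and 2.90 and 2.84 in tumor cells of responding and nonresponding tumors. Cd5, a receptor that dampens T cell receptor signals, had -2.30 in CAFs and -2.23 in tumor cells of responding tumors. Cd47, a ligand that restrains phagocytosis, was called in responding CAFs (0.77) and tumor cells (0.59).

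Among the genes that control PD-L1, Stat2, a signal transducer of the type I interferon receptor, was called higher in CAFs of responding tumors (log2 fold change 1.31, adjusted p = 0.00223) and in tumor cells of responding tumors (1.90, adjusted p = 2.23e-06). Irf1, a transcription factor induced by interferons, was called lower in tumor cells of responding tumors (-0.44, adjusted p = 0.0418). In nonresponding tumors Stat2 was called in CAFs (1.16) and in tumor cells (1.29), the latter with Irf1 at -0.52. Of the 18 genes, 2 were called higher and 0 lower in responding CAFs, close to the 12.2% of all tested genes. In responding tumor cells 2 were called higher and 1 lower, beside 6.59%. In nonresponding CAFs 1 was called higher and 0 lower, beside 3.19%, and in nonresponding tumor cells 1 higher and 1 lower, beside 0.777%. Between responding and nonresponding tumors 0 of 18 were called in either cell type. All tested genes had 1.91% called there in CAFs and 0.736% in tumor cells.

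The genes whose statistics lay nearest to those of Cd274 over all 10 comparisons were Tpst2, Ddr1, Tgtp1, Tnfrsf23 and Ccnd2. Their Euclidean distances to Cd274 ran from 2.49 to 2.76, where the median of 11390 genes with means of 10 or more in each fit was 10.61. These comparisons share libraries, so the likeness is a description. For Pdcd1 over the 4 comparisons of CD8+ T cells the nearest were Rbbp8, Mlst8, Epc2, Zfp938 and I730030J21Rik, at distances of 0.09 to 0.15 with a median of 2.68 over 12860 genes, and Pdcd1 itself lay only 1.66 from a profile without any change.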

How the data were processed

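Bulk RNA-seq tables of sorted CD8+ T cells, CAFs and MC38 tumor cells were used. The submitters' processing notes name fastp 0.20.1, STAR 2.7.6a, R 4.0.2, DESeq2 1.28.1 and the mm39 build, and the counting tool is not given in the sources used here. Libraries were preamplified from 1 ng of total RNA. The authors deposited 10 tables of DESeq2 comparisons with no values per sample. The mean signal per gene was made by the authors as a normalized read count and averaged over the libraries of each fit. The log2 values in the deposited tables are moderated fold changes, the Wald statistic is a score computed by the authors, and the p-value and adjusted p-value are as deposited. In 9 tables some genes differ in sign between the log2 fold change and the statistic. The p-value column matched the 2-sided normal p of the statistic within its rounding.

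Signs were turned in the 4 tables in which the untreated group came first. Because the tables hold only these comparisons, they are used here as the measurement, and no count model could be run. A gene was called at an adjusted p-value under 0.05, and members were counted beside the share of all tested genes. Replicates are separate tumors by the labels, and library depth and precision beyond the Wald statistic are unknown. The members and lists were chosen with earlier results of these data known. All 10 members were named in each comparison, and from each list at most the 4 called genes with the largest absolute statistic. Genes alike were the 5 with the smallest Euclidean distance of statistics among genes with a mean of at least 10 in each fit. Ifit3, Myb, and the marker genes given as examples were chosen after their values were seen. The values of 1 gene of the lists are not reported here. The adjustment step was tested on simulated data. Python 3.11.15, pandas 2.3.3 and scipy 1.17.1 were used.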

Additional observations from a re-analysis of the deposited data

How the results depend on the processing

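The number of members called was recomputed in each of the 10 comparisons under 5 other rules. It was the same in all 10 when p-values were adjusted over every gene with a p-value, when they were adjusted over genes with a mean of at least 10, and when a change of at least 1 on the log2 scale, in either direction, was also required. With an adjusted p-value under 0.01 it fell from 2 to 1 in tumor cells of responding against untreated tumors, where Entpd1 was lost, and was the same in the other 9 comparisons. With an adjusted p-value under 0.1 it rose from 0 to 1 in CD8+ T cells of nonresponding against untreated tumors, by Cd274, and from 2 to 4 in CAFs of responding against untreated tumors, by Lag3 (lower) and Pdcd1lg2 (higher). The 8 called log2 fold changes kept their sign by the Wald statistic and after subtraction of the median of all genes with a mean of at least 10. No paired analysis was possible because the tables hold no values per sample, and for the same reason leaving out single tumors, a replicate block and another count model were not run, so a call that rests on 1 library would not be seen. The depth of each library is unknown. In the joint fit of CAFs and tumor cells Cd160, Ctla4, Pdcd1 and Tox had means under 10 and were not called, which sets no bound on their change.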

Other observations

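Further genes of the lists were called in these cells. In CAFs of responding tumors Nr4a2 and Nr4a1, immediate early nuclear receptors, were called lower (log2 fold change -1.68 and -1.11), and in tumor cells of responding tumors likewise (-2.16 and -1.47). They were the 2 called of 13 transcription factors with an adjusted p-value in each. All tested genes had 12.2% called in CAFs, close to that count, and 6.59% in tumor cells. In CD8+ T cells Nr4a1 had 1.30. Bach2, a repressor that restrains effector genes in T cells, was called lower in tumor cells of responding against untreated tumors (-3.44, adjusted p = 8.5e-05, DESeq2) and against nonresponding ones (-2.87, adjusted p = 0.0045), and had 0.91 in CD8+ T cells of responding tumors (adjusted p = 0.0111). In tumor cells Bach2 was the 1 called of 7 progenitor exhausted genes with an adjusted p-value against untreated tumors, beside 6.59% of all tested genes. Against nonresponding tumors it was 1 of 8, beside 0.736%. Icosl, the ligand of ICOS, was the single ligand of its list called between responding and nonresponding tumors, in tumor cells (2.60, adjusted p = 0.0102). It was 1 of 13 with an adjusted p-value there, beside 0.736% of all tested genes. Fgl2, a secreted ligand of inhibitory Fc receptors, had 3.11 in CAFs of responding tumors (adjusted p = 0.0032).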
